A study of Allium sativum with 18 samples.

Results

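Among the 57561 gene IDs measured in garlic cloves, 122 were abundant in germinating basal clove and had at most 5% of that level in each other group. They were chosen from the measured values themselves. A gene was a member when its mean in germinating basal clove was at least 50 FPKM, a level corrected for the length of the gene and the depth of the library, and its mean in each of the other 5 groups was at most 5% of that. The members were 2.79% of the 4371 genes that reached 50 FPKM in germinating basal clove. Because the levels chose them, the contrast between germinating basal clove and the other groups is described below without a test.

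RNA was sequenced from bulbs of garlic (*Allium sativum*), from plants labelled Chalingzipisuan, with no treatment other than the stage of growth. The 6 groups were germinating, dormant and enlarging basal clove, and germinating, dormant and enlarging storage clove, each with 3 biological replicates per the series design, 18 libraries in all. Germinating bulbs had short shoots, and enlarging bulbs were collected shortly after the flower stems appeared. Basal and storage clove were separated by hand, so each library holds every cell type of its piece. In such bulk samples, fewer cells of a type and less RNA per cell cannot be told apart.

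A garlic clove is a swollen storage leaf that encloses a bud, seated on a short compressed stem. When dormancy ends, the bud elongates into a green shoot, roots grow out from the base, and the storage leaf gives up its reserves. The basal part therefore contains the tissues that divide and elongate at germination. The gene IDs are given without names in the table used here, so no function is assigned to any member. For the same reason the labelled tissues could not be checked against marker genes, and only a few members are named, by ID.

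The number of reads assigned to genes was between 18579917 and 21897520 in germinating basal libraries and between 6540146 and 20897436 in the others, lowest in dormant storage clove. A set of libraries stood apart from their replicates in the values of the members. Replicate 3 of germinating basal clove was the lowest of its group for 94 of the 122 members. Replicate 2 of germinating storage clove was strictly the lowest of its group for 108 members. These were 88.5% of the members, against 45.1% of the 26161 genes with a mean of at least 1 FPKM in that group. Replicate 1 was strictly the lowest for 96 members in enlarging storage clove and for 82 in dormant storage clove. For these counts the share over all genes was not computed, and replicate 1 of dormant storage clove was the shallowest library. What set these libraries apart was not tested. Values without them are given beside the results that they moved most.

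The members spanned a wide range of levels in germinating basal clove. Their group means ran from 50.5 to 5631 FPKM with a median of 247.1 FPKM. In all, 31 members lay below 100 FPKM, 51 between 100 and 500, 19 between 500 and 1000, and 21 at 1000 FPKM or more. Over all genes, 108 reached that level in germinating basal clove. The 4 most abundant members carried 25.5% of the summed FPKM of all 122.

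The most abundant member was Asa4G02690.1. It had 6205, 6365 and 4323 FPKM in germinating basal clove, against 7.57, 3.05 and 7.52 FPKM in dormant basal clove and 17.4, 14.8 and 15.4 FPKM in enlarging basal clove. It had 74.1, 16.1 and 79.1 FPKM in germinating storage clove, 1.62, 18.2 and 20.1 FPKM in dormant storage clove and 0, 13.7 and 11.3 FPKM in enlarging storage clove. Every germinating basal library thus lay far above all the others, and germinating storage replicates 1 and 3 came next. The mean was 5631 ± 1136 FPKM in germinating basal clove against 56.4 ± 35.0 FPKM in germinating storage clove (mean ± SD of n = 3 libraries, as for every mean given), or 99.8-fold higher.

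The next member by level was Asa4G06008.1. Its values in germinating basal clove were 5330, 4955 and 4153 FPKM, against 197.9 FPKM in the highest of the other 15 libraries. That library was replicate 1 of germinating storage clove, whose replicates 2 and 3 had 48.0 and 154.2 FPKM. Unlike Asa4G02690.1, this member was above 30 FPKM in all 3 enlarging storage libraries, at 34.7, 58.8 and 31.2 FPKM.

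**Figure D1:**
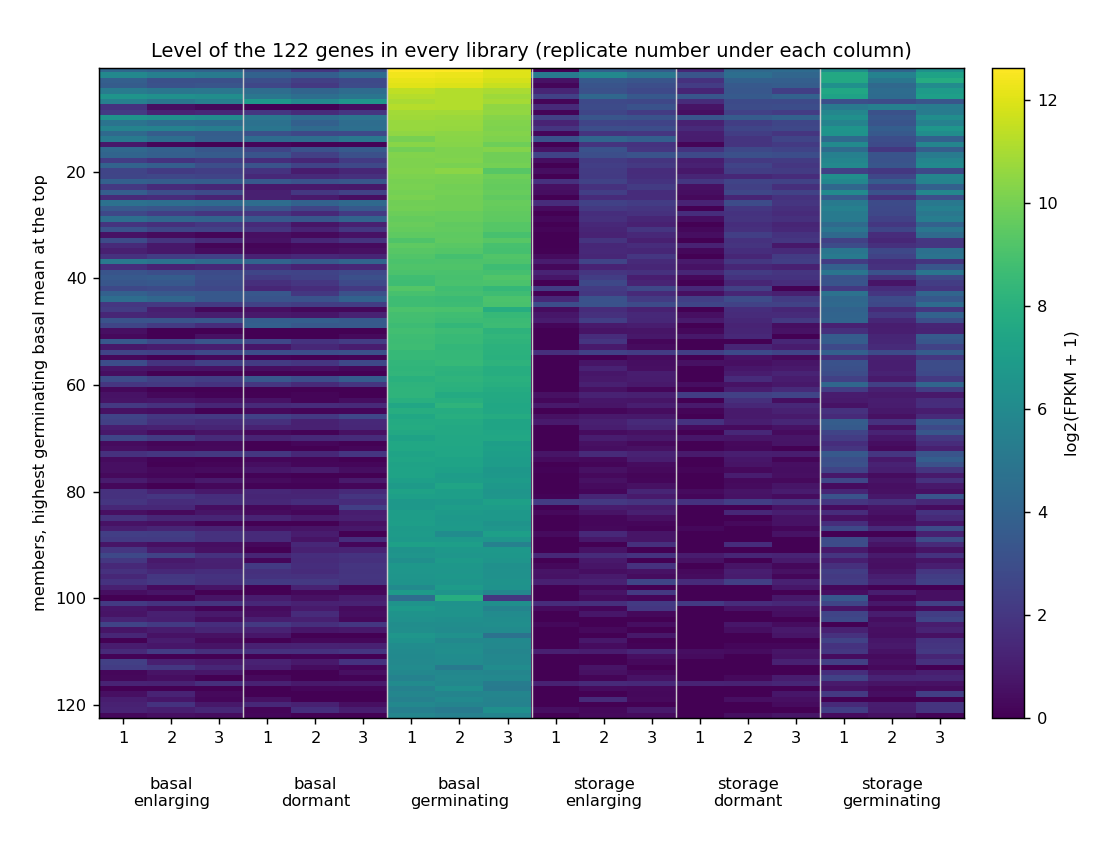
Level of the 122 members as log2(FPKM + 1), 1 row per gene ordered by its mean in germinating basal clove and 1 column per library, with the replicate number under the column. The 3 germinating basal columns are bright over their whole length, columns 1 and 3 of germinating storage clove are brighter than column 2, and the first column of enlarging and of dormant storage clove is darker than its neighbours.

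Together the members held 6.61%, 6.54% and 5.30% of all FPKM in the 3 germinating basal libraries. In germinating storage clove they held 0.229%, 0.0438% and 0.204%. In enlarging and dormant basal clove their share lay between 0.0388% and 0.0834%, and in enlarging and dormant storage clove between 0.0103% and 0.0331%. The group means of the summed level were 72259 ± 8972 FPKM in germinating basal clove and 1755 ± 1109 FPKM in germinating storage clove, 41.2-fold apart. Counted in reads recovered from the values, the share in germinating basal clove was 5.23% ± 0.67.

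**Figure D2:**
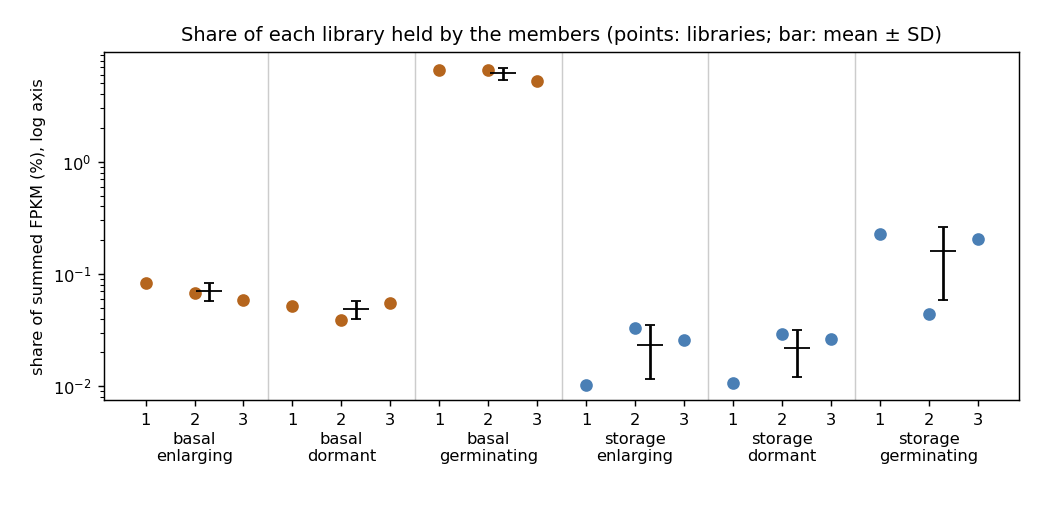
Share of the summed FPKM of each library that the 122 members held, in percent on a log axis, with points for libraries and a bar for the mean and SD of the 3 libraries of a group. Germinating basal clove lies between 5.30% and 6.61%, and replicate 2 of germinating storage clove, at 0.0438%, lies within the range of the dormant and enlarging basal libraries.

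The rule used the mean of the 3 germinating basal libraries and set no limit on their agreement. The same 3 values chose the members, so their spread is given as a description and is not independent of the choice. The SD was a median of 13.5% of the mean over the members, against 10.7% over all 4371 genes that reached 50 FPKM there. It was under 25% for 107 members and over 50% for 2. Replicate 3 was at a median of 86.8% of the group mean over the members, against 97.3% over the 4371 genes. It was the lowest replicate for 77.0% of the members and for 50.7% of the 4371 genes. The lowest germinating basal library exceeded all 15 other libraries for 121 members, as it did for 9.99% of the 30530 genes tested, and the rule largely fixes that count.

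The exception was Asa6G02345.1, the member with the largest spread. It had 22.0, 236.1 and 2.90 FPKM in germinating basal clove, while germinating storage replicate 1 had 10.03 FPKM. Its mean of 87.0 ± 129.5 FPKM therefore rests on replicate 2, and its groups overlap. The next largest spread was that of Asa7G03247.1, at 98.1, 82.6 and 25.9 FPKM in germinating basal clove and at most 2.46 FPKM in any other library.

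The level left outside germinating basal clove was small beside the level there but rarely 0. In FPKM it was not always low. The highest group means were 151.1 FPKM in germinating storage clove, 88.5 FPKM in dormant basal clove and 81.6 FPKM in enlarging basal clove. For 85 members the highest of the other 5 groups was germinating storage clove. It was enlarging basal clove for 20 members, dormant basal clove for 10, enlarging storage clove for 4 and dormant storage clove for 3. Relative to the germinating basal mean, the median member stood at 2.04% in germinating storage clove, 1.05% in enlarging basal clove, 0.593% in dormant basal clove, 0.274% in dormant storage clove and 0.265% in enlarging storage clove. In 16 members no other group exceeded 1%, in 48 no other group exceeded 2%, and in 74 the highest lay between 2% and 5%.

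Some members had few or no reads in a group. No read was counted over the 3 libraries for 4 members in dormant basal clove, 1 in enlarging basal clove, 1 in germinating storage clove, 9 in dormant storage clove and 2 in enlarging storage clove. Dormant storage clove had the shallowest libraries, and 29 members had at most 3 reads there. One member without a read in dormant basal clove was Asa5G05163.1, at 442.5, 408.7 and 289.7 FPKM in germinating basal clove. Set against a floor of 3 reads over the 3 dormant basal libraries, it was at least 5901-fold higher in germinating basal clove. Such floors cover counting error only.

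Asa5G05163.1 was also among the 2 members with the lowest share in any other group, with at most 0.416% of its germinating basal mean. The lowest share was that of Asa4G02643.1. Its values were 1198, 1402 and 663.0 FPKM in germinating basal clove, against 4.21, 3.18 and 5.77 FPKM in germinating storage clove, the highest of the other groups at 0.403% of the mean. At the other end of the rule, Asa7G06460.1 and Asa4G04132.1 lay just inside, with 4.92% and 4.95% in germinating storage clove. Asa1G02858.1 and Asa7G00471.1 lay just outside, with 5.04% and 5.05% there, at 343.1 and 234.9 FPKM in germinating basal clove. A further 80 genes of at least 50 FPKM had their highest other group between 5% and 10%.

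**Figure D3:**
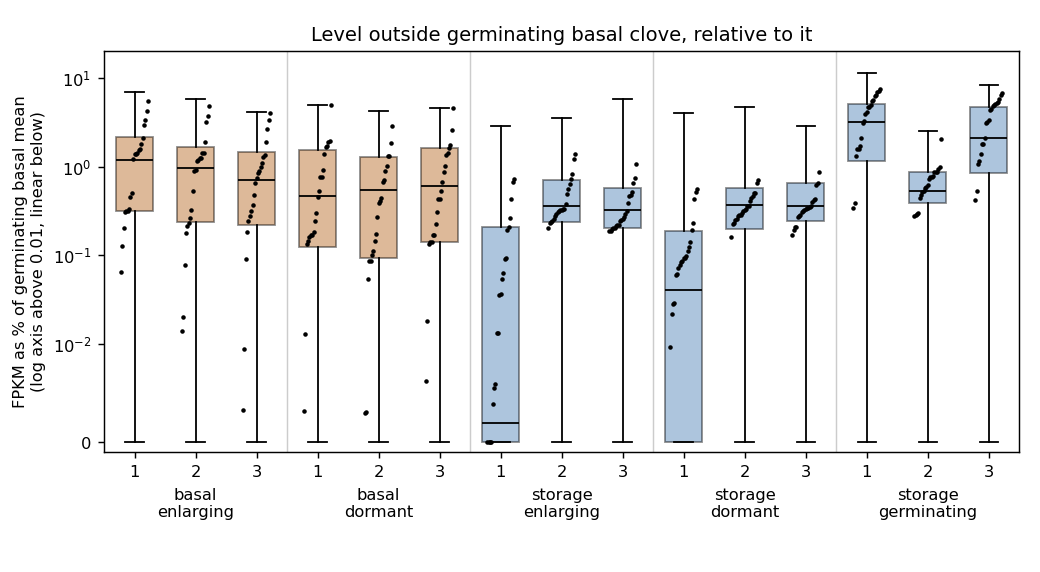
FPKM of each member as a percent of its own germinating basal mean in the 15 other libraries, on an axis that is logarithmic above 0.01% and linear below. Boxes give the median and quartiles of the 122 members, whiskers the lowest and highest, and black points the 21 members of at least 1000 FPKM. Medians are 3.16%, 0.532% and 2.10% in the 3 germinating storage libraries, and the black points fall to 0 in replicate 1 of enlarging storage clove.

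Germinating storage clove was the group nearest to germinating basal clove, and its 3 libraries differed from each other in the members. The median member stood at 3.16% of its germinating basal mean in replicate 1, 0.532% in replicate 2 and 2.10% in replicate 3. The summed level of the members was 5.23 times as high in replicate 1 and 4.58 times as high in replicate 3 as in replicate 2. Over the 64 members with at least 10 reads in replicate 2, the mean of replicates 1 and 3 was a median of 4.73 times the value of replicate 2. Over all 24312 genes with as many reads and at least 1 FPKM in the group, that ratio had a median of 1.05, and it exceeded 4 in 0.333% of them.

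The ratio was not the same in all members. It exceeded 4 in 39 of the 64 members, lay between 2 and 4 in 16, and was under 2 in 9. One member with no such drop in replicate 2 was Asa5G00575.1, which had 2403, 2317 and 1495 FPKM in germinating basal clove, against 33.1, 43.1 and 37.8 FPKM in germinating storage clove. By contrast Asa7G05290.1 had 180.9, 21.0 and 123.3 FPKM in germinating storage clove. Across the 122 members, which share each library and are not independent replicates, the rank order of the members was nevertheless similar in the 3 libraries. Spearman correlations were 0.94 between replicates 1 and 3, 0.86 between 1 and 2, and 0.89 between 2 and 3. The cap on germinating storage clove rises with the germinating basal mean, so the rule builds part of each of these 3 correlations in.

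In enlarging and dormant storage clove most members had a low FPKM whose share of the germinating basal level differed between libraries. The median member stood at 0.364% and 0.325% of its germinating basal mean in replicates 2 and 3 of enlarging storage clove, and at 0.366% and 0.356% in replicates 2 and 3 of dormant storage clove. In replicate 1 the medians were 0.00194% in enlarging and 0.0399% in dormant storage clove, where 61 and 54 members were listed at 0. The 21 members of at least 1000 FPKM showed it most clearly, since their depth is greatest. In replicates 2 and 3 of either group the lowest of the 21 stood between 0.161% and 0.202%, whereas the lowest was at 0% in replicate 1 of enlarging and at 0.00971% in replicate 1 of dormant storage clove. Whether these reads come from expression in storage clove was not tested, and the same holds for the comparisons below that use them.

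Basal clove before germination gave another picture. In the 3 enlarging basal libraries the 21 most abundant members ranged from 0.00328% to 5.52% of their germinating basal means, and in the 3 dormant basal libraries from 0.00292% to 4.97%. Before germination some members thus stood at several percent of their germinating basal means in basal clove, while others were close to 0. The origin of these reads was not tested either. Asa0G00573.1 had 2129, 2295 and 1962 FPKM in germinating basal clove, 105.8, 61.5 and 98.2 FPKM in dormant basal clove and 44.6, 30.3 and 40.8 FPKM in enlarging basal clove. Asa5G00575.1, of nearly the same level in germinating basal clove, had at most 0.372 FPKM in dormant and 2.60 FPKM in enlarging basal clove. The ranks of the members in dormant and enlarging basal clove were alike, with a Spearman correlation of 0.94 between the group means over the 122 members. The correlation of the ranks with those in germinating basal clove was 0.53 for dormant and 0.59 for enlarging basal clove. It was 0.82 for germinating, 0.82 for dormant and 0.75 for enlarging storage clove. The cap of 5% rises with the germinating basal mean, so the rule builds part of each of these 5 correlations in. The same cap builds in part of the 0.94 between dormant and enlarging basal clove. Whether the 5 correlations differ between the tissues was not tested.

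Comparisons among the other 5 groups are not the contrast that chose the members, although the rule capped all 5. They were tested with limma on log2(FPKM + 1) over the 30530 genes with at least 1 FPKM in at least 3 libraries, and a gene was called when its adjusted p (Benjamini-Hochberg) was below 0.05. All 122 members passed that filter through germinating basal clove, and the rule keeps them low in the groups compared. A smaller share of calls among the members than among all genes is therefore no result about the members. Differences below are on that log2 scale, which understates changes at low FPKM. Each fit uses 1 spread per gene over all 18 libraries, the uneven germinating storage libraries included. The series design calls the replicates biological without naming separate plants, so the p-values measure the spread between these samples.

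From dormancy to germination the level of many members rose in the storage clove libraries too. Whether these germinating storage reads come from expression in storage clove was not tested. Of the 122 members, 79 were called higher in germinating than in dormant storage clove, 64.8%, against 30.8% of all genes tested, and 2 were called lower, against 29.0%. The median difference was 1.35 over the members and 0.01 over all genes tested, and 1.83 and 0.04 without replicate 2 of germinating storage clove. It was 1.12 and -0.01 without replicate 1 of that group, and 1.26 and 0.01 without its replicate 3. With 1 dormant storage library left out, the median over the members lay between 1.17 and 1.54. The largest rise among members whose libraries did not overlap was that of Asa7G05290.1, at 180.9, 21.0 and 123.3 FPKM in germinating storage clove against 1.47, 9.83 and 4.02 FPKM in dormant storage clove. Its log2 difference was 3.95 (SE 0.64, limma adjusted p = 5.3e-05). Asa7G02091.1, at 88.0, 10.6 and 72.2 FPKM against 1.05, 3.90 and 2.89 FPKM, came next with 3.64 (SE 0.60, limma adjusted p = 6.1e-05). Without replicate 2 of germinating storage clove these differences were 4.88 and 4.57, and without replicate 1 that of Asa7G05290.1 was 3.35.

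The rise in storage clove depended on the library as well. Replicates 1 and 3 of germinating storage clove each exceeded every dormant storage library in 102 members, 83.6%, against 43.1% and 40% of all genes tested. Replicate 2 did so in 62 members, 50.8%, against 38.2% of all genes tested. Weighting the recovered reads with voom, which allows for their counting error, left 40 members called higher and 1 lower. Those 40 were 32.8% of the members, against 26.1% of all genes under voom, a much smaller gap than in the fit on FPKM, and the member called lower was 0.82%, against 25.8%. Quantile normalization, which gave a median difference of -0.17 over all genes, left 68 higher and 3 lower. These were 55.7% and 2.46% of the members, against 25.5% and 36.8% of all genes.

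The 2 members called lower in germinating storage clove had their own pattern. Asa5G02442.1 had 0.945, 0.799 and 0.823 FPKM in germinating storage clove, against 3.92, 4.23 and 5.12 FPKM in dormant storage clove, a difference of -1.54 (SE 0.20, limma adjusted p = 3.8e-06). It was also the only member called higher in dormant than in enlarging storage clove, where it had 0.479, 1.32 and 1.13 FPKM (1.48, SE 0.20, limma adjusted p = 7.4e-05). Its level in germinating basal clove was 238.0 ± 52.1 FPKM. Asa8G02592.1 had 0.883, 0.575 and 0.540 FPKM in germinating against 1.43, 1.32 and 1.57 FPKM in dormant storage clove. Its difference of -0.55 (SE 0.20, limma adjusted p = 0.024) was no longer called without replicate 2 or replicate 3 of germinating storage clove (adjusted p = 0.065 and 0.072), without replicate 3 of dormant storage clove (0.063) or with voom (0.25). The adjusted p ran from 0.0010 to 0.25 over its alternatives, and without any 1 of those 3 libraries Asa5G02442.1 was the only member called lower.

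Between dormant and enlarging basal clove few members were called, and 51 and 42 of the 122 had means below 1 FPKM in these groups. A single member was higher in dormant basal clove, 0.820% against 16.5% of all genes tested, and 5 were lower, 4.10% against 15%. The median difference was -0.27 over the members and -0.01 over all genes tested. The member that was higher, Asa3G04051.1, had 13.8, 10.2 and 10.9 FPKM in dormant and 5.34, 3.42 and 2.17 FPKM in enlarging basal clove (1.49, SE 0.30, limma adjusted p = 0.0013, or 0.086 with a pseudocount of 0.1). With a fit on only the 6 libraries compared, which leaves out the spread of the other groups, 7 members were called higher and 27 lower, or 5.74% and 22.1% of them. Of all genes, that fit called 20.5% higher and 19.2% lower.

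The largest falls from enlarging to dormant basal clove were those of Asa7G03806.1 and Asa8G03852.1. Asa7G03806.1 had 30.3, 22.3 and 29.5 FPKM in dormant and 92.0, 80.3 and 72.6 FPKM in enlarging basal clove, so the libraries did not overlap. Asa8G03852.1 had 30.3, 21.3 and 27.8 FPKM against 88.4, 76.9 and 64.3 FPKM. The difference of Asa7G03806.1 was -1.55 (SE 0.55, limma adjusted p = 0.042). That of Asa8G03852.1 was -1.50 (SE 0.52, adjusted p = 0.039 in the same limma fit). Both were no longer called when any one of the 6 libraries compared was left out. The adjusted p then reached 0.12 for both, and the 5 members called lower became 3 without replicate 1 or 3 of dormant basal clove, 2 without its replicate 2 or without replicate 2 of enlarging basal clove, and 1 without replicate 1 of enlarging basal clove. By contrast, a fit on only those 6 libraries kept both calls, with the lowest adjusted p of each at 0.00073 and 0.0013.

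Basal and storage clove were then compared before germination. At dormancy 31 members were called higher in basal clove, 25.4% against 34.6% of all genes tested, and 6 lower, 4.92% against 23.1%. In enlarging bulbs 46 were higher in basal clove, 37.7% against 28.7%, and 3 lower, 2.46% against 22.8%. The median difference was 0.29 at dormancy and 0.68 in enlarging bulbs over the members, against 0.10 and 0.06 over all genes tested. With quantile-normalized values the dormancy comparison had medians of -0.11 over the members and -0.16 over all genes, and its split became 20 members higher and 17 lower, or 16.4% and 13.9%, against 25.9% and 34.3% of all genes. With voom it became 17 higher and 3 lower, or 13.9% and 2.46%, against 30.6% and 22.1% of all genes. In enlarging bulbs voom called 34 members higher, 27.9% against 28.5% of all genes, and 1 lower, 0.82% against 23.5%. Without replicate 1 of enlarging storage clove 33 were higher, 27.0% against 25.5%. Without replicate 1 of enlarging basal clove 35 were higher, 28.7% against 25.9%. Leaving out any other enlarging library gave 41 to 49, or 33.6% to 40.2%, against 25.4% to 27.2%.

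On the log2(FPKM + 1) scale with all libraries, Asa0G00573.1 had the largest difference at both stages. At dormancy it averaged 88.5 ± 23.7 FPKM in basal clove, against 4.63 ± 2.32 FPKM in storage clove (4.06, SE 0.51, limma adjusted p = 3.6e-06). In enlarging bulbs it averaged 38.6 ± 7.39 FPKM in basal clove, against 3.83 ± 3.22 FPKM in storage clove (3.41, SE 0.51, limma adjusted p = 3.6e-05). Asa3G04051.1 came next at dormancy, where its basal libraries had 13.8, 10.2 and 10.9 FPKM against 0, 1.38 and 0.391 FPKM in the storage libraries (3.07, SE 0.30, limma adjusted p = 2.0e-07). That order turned with a pseudocount of 0.1, at 4.80 for Asa3G04051.1 and 4.35 for Asa0G00573.1, and with voom, at 5.12 and 4.31. In enlarging bulbs Asa8G03852.1 came next, where it averaged 76.5 ± 12.1 FPKM in basal clove against 7.15 ± 2.61 FPKM in storage clove (3.30, SE 0.52, limma adjusted p = 6.6e-05). Without replicate 1 of enlarging storage clove that order turned too, with the difference of Asa0G00573.1 at 2.55, below that of Asa8G03852.1.

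The members named here as lower in basal clove were below 10 FPKM in both tissues. At dormancy Asa5G02442.1 had 0.0623, 0.117 and 0 FPKM in basal clove against 3.92, 4.23 and 5.12 FPKM in storage clove (-2.35, SE 0.20, limma adjusted p = 3.4e-08). Asa5G00575.1 had 0.0644, 0.0604 and 0.372 FPKM against 0.579, 6.60 and 7.06 FPKM (-1.99, SE 0.55, limma adjusted p = 0.0053). Its adjusted p lay between 9.7e-05 and 0.082 over the alternatives, and voom, which gave the 0.082, did not call it. Its values in replicates 2 and 3 of dormant storage clove were 0.319% and 0.341% of its germinating basal mean, the low share described above. In replicate 1 it was lower still, and without that library the difference was -2.76. Without replicate 1 of dormant storage clove 12 members were called lower in dormant basal clove instead of 6, or 9.84% against 21.8% of all genes. The count was 2 without replicate 1 of dormant basal clove or replicate 2 of dormant storage clove, and 3 without replicate 2 or 3 of dormant basal clove. These were 1.64% and 2.46% of the members, against 20.3% to 21.7% of all genes. In enlarging bulbs Asa3G01244.1 was lower in basal clove, at 2.98, 3.28 and 3.37 FPKM against 7.01, 8.01 and 6.47 FPKM (-0.95, SE 0.29, limma adjusted p = 0.013). The 3 members called lower in enlarging basal clove became 1 without its replicate 3 or without replicate 2 or 3 of enlarging storage clove.

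Dormant and enlarging storage clove differed in 3 members. Besides Asa5G02442.1, called higher at dormancy (0.820% of the members against 6.14% of all genes tested), 2 were called lower, 1.64% against 14.1%. Asa1G01812.1 had 1.02, 2.68 and 5.04 FPKM in dormant against 8.05, 16.5 and 12.6 FPKM in enlarging storage clove (-1.86, SE 0.40, limma adjusted p = 0.0037). It was not called with voom (adjusted p = 0.14) or with a fit on only the 6 libraries (0.051). Asa4G06008.1 had 9.16, 22.5 and 17.0 FPKM against 34.7, 58.8 and 31.2 FPKM (-1.33, SE 0.42, limma adjusted p = 0.033). That call was lost in 8 of the 16 alternatives, with adjusted p as high as 0.31 under voom, and among them without replicate 1 or 3 of dormant storage clove (0.15 and 0.059) and without replicate 1 or 2 of enlarging storage clove (0.055 and 0.13).

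Leaving out replicate 1 of dormant storage clove gave 2 members called higher instead of 1. The 2 called lower became 1 without replicate 1 or 3 of dormant or replicate 2 of enlarging storage clove.

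The change from enlarging to dormant bulbs was also compared between the tissues, by a test added after the data were seen. In 2 members the change was more positive in basal than in storage clove, 1.64% against 17.6% of all genes tested, and in 2 it was more positive in storage clove, 1.64% against 11.0%. The first pair was Asa1G01812.1 and Asa3G04051.1, and the second was Asa5G02442.1 and Asa8G03852.1.

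**Figure D4:**
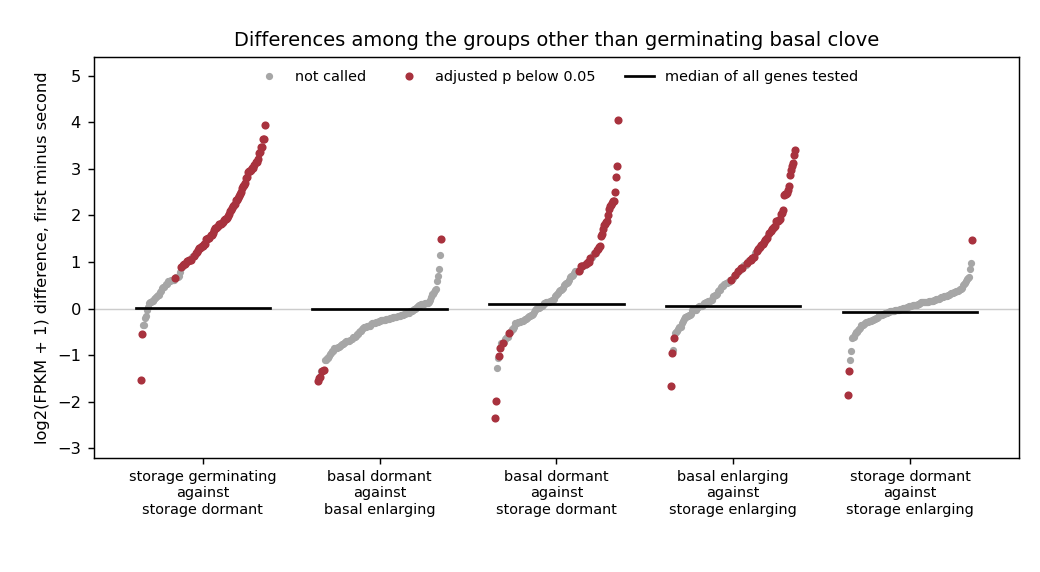
Difference in log2(FPKM + 1) of the 122 members in the 5 comparisons that leave out germinating basal clove, first group minus second, members ordered by their difference within each comparison. Red points passed the adjusted threshold and black lines mark the median of all 30530 genes tested. The members lie mostly above the line in germinating against dormant storage clove, with 79 called higher and 2 lower.

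The same rule was applied with each of the other groups in place of germinating basal clove. It found 1 gene for germinating storage clove and none for the other 4 groups, although 4152 to 4446 genes reached 50 FPKM in each. With the limit raised to 20% of the group's own mean, it found 317 genes for germinating basal clove, 31 for germinating storage clove, 5 for dormant storage clove, 1 each for enlarging and dormant basal clove and none for enlarging storage clove. Below 50 FPKM, another 174 genes with at least 1 FPKM in germinating basal clove met the limit of 5%. Asa0G02174.1, at 50.5 FPKM, was just inside the limit on level, and Asa7G06434.1, at 49.1 FPKM, was just outside.

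Among the libraries left out in turn, those of germinating storage clove moved the number of members most. Without replicate 2 of that group, 94 genes met the rule, all of them members. Without replicate 1, 135 met it, with all 122 members among them. Leaving out any other library gave between 117 and 130 genes, though not always the same ones. Without replicate 1 of germinating basal clove, 122 genes met the rule, of which 115 were members. Scaling the libraries by median ratios gave 147 genes, all 122 members among them. Quantile normalization gave 114 genes, 113 of them members. Group medians in place of means gave 108 genes, 103 of them members. The limits of the rule moved the number further, to 48 genes at 2%, 202 at 10% and 160 at a level of 20 FPKM. Germinating storage clove stayed the highest of the other groups for 74 members without its replicate 1, 89 without replicate 2 and 79 without replicate 3.

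Properties that the rule did not use were the length of the gene models and the place of the IDs. Coding lengths, recovered from the steps of the FPKM values, had a median of 610.5 bp over the members, with a range of 210 to 1638 bp. The median was 744 bp over the 4249 other genes that reached 50 FPKM in germinating basal clove and 765 bp over all genes tested. Lengths above 1000 bp were found for 22.1% of the members, 34.0% of those 4249 genes and 37.6% of all genes tested. The members carried all 9 ID prefixes of the table. The most frequent, Asa7G, held 18.9% of the members and 14.1% of the genes tested, and Asa6G held 8.20% and 13.3%.

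Some members had IDs close to those of other members. IDs that differed by at most 5 were joined into runs, and 27 members fell into 10 runs, 7 of them pairs. The other 95 members were in no run. Of the 152 places directly beside a member's ID that a tested gene held, 20 were held by another member, or 13.2%, whereas members were 0.400% of the genes tested. The files give no coordinates, so the order of the IDs is a description and no position is claimed. The sources used here do not say whether reads were shared between similar neighbours.

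The longest run had 6 members among 8 consecutive IDs that begin with Asa3G. Its most abundant members were Asa3G00658.1, at 183.2, 240.6 and 216.6 FPKM in germinating basal clove, and Asa3G00657.1, at 105.0, 131.1 and 125.4 FPKM. In other libraries these reached at most 5.36 and 4.01 FPKM, in both cases in replicate 3 of dormant basal clove. The other members of the run had means between 52.8 and 100.2 FPKM. All 6 had short coding lengths, from 270 to 327 bp. In germinating storage clove the means of the run lay between 0 and 1.39 FPKM. Of the 2 IDs inside the run that were not members, the first had a mean of 30.9 FPKM and at most 0.619% of it elsewhere, and missed the limit on level only. The other had 0.246 FPKM.

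A run of 4 members held Asa4G06008.1, with 4813 ± 601 FPKM in germinating basal clove, and 3 more with means of 925.2, 130.2 and 638.0 FPKM. Outside germinating basal clove these 3 reached 0.733%, 0.50% and 0.615% of their means, less than the 2.77% of Asa4G06008.1. A run of 3 had means of 177.7, 1127 and 506.9 FPKM. The ID just before that run had 146.3 FPKM in germinating basal clove and missed the rule because its germinating storage mean was 7.90% of that.

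**Figure D5:**
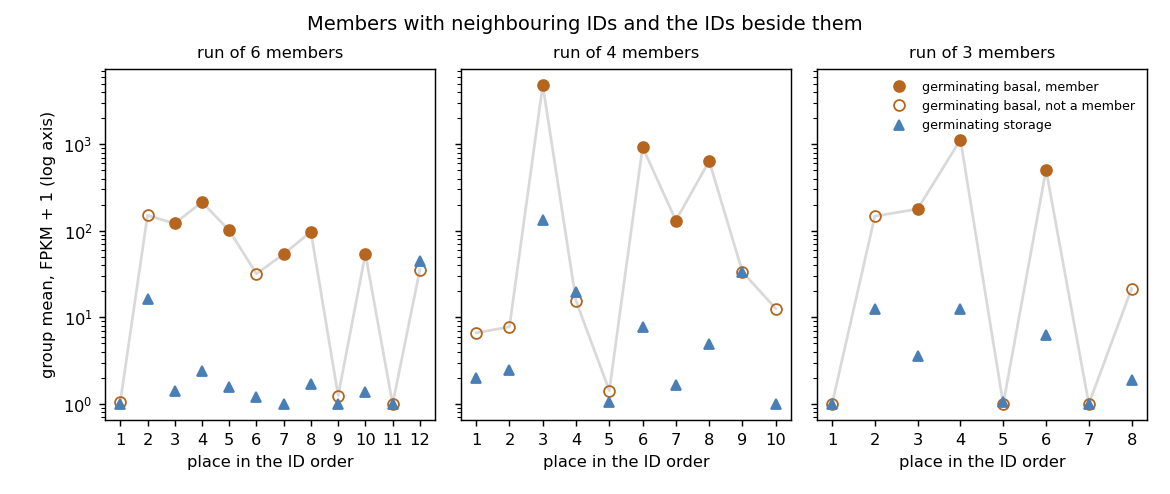
Group means of the IDs in the 3 longest runs of members and of 2 IDs on either side, as FPKM + 1 on a log axis against the place in the ID order. Filled circles are members in germinating basal clove, open circles other IDs in germinating basal clove and triangles the same IDs in germinating storage clove. In the run of 6, members lie between 52.8 and 213.5 FPKM in germinating basal clove and at most at 1.39 FPKM in germinating storage clove.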

How the data were processed

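Values came as 1 table of FPKM for 18 libraries, deposited by the authors with a header naming each library. RNA was extracted from each sample and made into Illumina libraries with a NEBNext kit, per the labels' protocols. HISAT2 is named, with no version, per the submitters' processing notes. Counter, build, annotation and strand setting were not given in the sources used here. Members, lists and tests were chosen with earlier results of these data known. Each FPKM is a read count over a gene length and a library total, so both were recovered from the steps between low values. Taking the smallest length that gave whole reads in every library, 100% of 595800 values above 0 came out within 0.01 reads, a match to which the search for lengths contributes. The recovered reads summed to 99.99% of each total. Of 21276 genes with more than 100 reads, 95.2% had lengths divisible by 3, hence coding length. At 1 kb, 3 reads equal 0.137 FPKM at the greatest depth and 0.459 FPKM at the lowest.

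The test was limma 3.58.1 in R 4.3.3, on log2(FPKM + 1) with a variance trend, 6 group means, 12 residual and 3.8 prior degrees of freedom. On simulated data its calls held a larger share of unchanged genes than the adjusted threshold names. Far fewer genes were changed there than were called here, and that share depends on such settings. It therefore gives no rate for these calls, and calls near the threshold are read with caution. Named members followed a fixed rule, with the exceptions given here. The rule took at most 2 IDs at each end of each description, and in comparisons only called members whose libraries did not overlap. Asa5G00575.1 in germinating storage clove and Asa5G05163.1 at its floor were picked after their values were seen. Outside the rule were also the contrast of Asa0G00573.1 with Asa5G00575.1 in basal clove before germination, and Asa0G02174.1 and Asa7G06434.1 beside the limit of 50 FPKM. No pair of replicates agreed within sampling noise, with a chi-square per gene of at least 2.68, so each library counted as 1 replicate. The alternatives were another pseudocount, no filter, median-ratio and quantile scaling, voom on recovered reads, a fit on the compared groups, a replicate block and leaving out each library.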

Additional observations from a re-analysis of the deposited data

Results flagged for a closer look

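In 4 members the change from enlarging to dormant bulbs differed between the tissues, by a limma test of that difference added after the data were seen. The change in basal clove minus that in storage clove, on the log2(FPKM + 1) scale, was 1.98 for Asa1G01812.1 (SE 0.57, limma adjusted p = 0.016). This member stood at 24.5 ± 5.76 FPKM in dormant and 23.7 ± 11.0 FPKM in enlarging basal clove, and at 2.91 ± 2.02 FPKM in dormant and 12.4 ± 4.21 FPKM in enlarging storage clove. For Asa3G04051.1 it was 1.63 (SE 0.42, limma adjusted p = 0.0086), with a higher level in dormant than in enlarging basal clove and at most 1.38 FPKM in any dormant or enlarging storage library. For Asa5G02442.1 it was -1.72 (SE 0.28, limma adjusted p = 0.00027), with a higher level in dormant than in enlarging storage clove and at most 0.511 FPKM in any dormant or enlarging basal library. For Asa8G03852.1 it was -2.13 (SE 0.74, limma adjusted p = 0.041), with 26.5 ± 4.65 FPKM in dormant and 76.5 ± 12.1 FPKM in enlarging basal clove, and with 11.4 ± 2.60 FPKM in dormant and 7.15 ± 2.61 FPKM in enlarging storage clove. With voom on the recovered reads 3 of these 4 calls were lost, at adjusted p = 0.094 for Asa1G01812.1, 0.18 for Asa3G04051.1 and 0.20 for Asa8G03852.1 (limma), and that of Asa5G02442.1 was kept at 0.044. Asa3G04051.1 was not called with a pseudocount of 0.1 either (limma adjusted p = 0.092). Asa8G03852.1 was also lost without the filter on low values and when any 1 of 10 of the 12 libraries compared was left out, with a limma adjusted p of up to 0.098. It was kept without replicate 1 of dormant or replicate 2 of enlarging storage clove. Positive differences were called in 4 members instead of 2 without replicate 1 of enlarging storage clove. Negative ones were called in 6 instead of 2 without replicate 2 of enlarging storage clove and in 4 without replicate 1 of dormant storage clove. Their number was 1 without replicate 2 or 3 of dormant basal clove, replicate 1 or 2 of enlarging basal clove, replicate 2 or 3 of dormant storage clove, or replicate 1 or 3 of enlarging storage clove.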

How the results depend on the processing

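None of 272 alternative values of the named members reversed, 238 kept their call and 34 lost it. The rule found 48 genes at a limit of 2% and 202 at 10%, and 94 to 135 with 1 library left out. The share of germinating basal clove was 5.92% to 6.57% with 1 library left out and 5.23% by reads, and the median germinating storage level was 1.40% to 2.80% of the germinating basal mean. With voom, germinating against dormant storage clove had 40 members (32.8%) higher and 1 lower, against 26.1% and 25.8% of all genes. Dormant against enlarging basal clove had 2 higher, against 20% of all genes. Dormant basal against dormant storage clove had 17 (13.9%) higher and 3 lower, against 30.6% and 22.1%. Enlarging basal against enlarging storage clove had 34 (27.9%) higher and 1 lower, against 28.5% and 23.5%. Dormant against enlarging storage clove had 0 lower, where limma on FPKM had 2, against 7.49% of all genes. The difference between tissues had 0 higher and 1 lower, against 12.2% and 10.4%. A pseudocount of 0.1 gave 0 higher and 3 lower in dormant against enlarging basal clove, against 13.6% and 13.9% of all genes. No filter gave 3 lower there, 1 lower in dormant against enlarging storage clove and 1 lower in the difference between tissues. Of all genes, 10.6%, 9.99% and 7.58% were then called lower. Quantile normalization gave 20 higher and 17 lower in dormant basal against dormant storage clove, against 25.9% and 34.3% of all genes. It gave 2 higher and 1 lower in dormant against enlarging storage clove, against 9.91% and 9.46%. Fits on the groups compared gave 7 higher and 27 lower (22.1%) in dormant against enlarging basal clove, against 20.5% and 19.2% of all genes. They gave 1 lower in dormant against enlarging storage clove, against 9.92%. The cause was not tested.

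With 1 library left out, 66 to 89 members (54.1% to 73%) were higher and 1 to 3 lower in germinating against dormant storage clove. Of all genes, 28.6% to 31.5% and 25.9% to 29.8% were. In dormant against enlarging basal clove 1 was higher and 1 to 5 lower, against 12.5% to 18% and 11% to 16.3%. In dormant basal against dormant storage clove 22 to 31 (18% to 25.4%) were higher and 2 to 12 lower, against 31.9% to 35.4% and 20.3% to 24%. In enlarging basal against enlarging storage clove 33 to 49 (27% to 40.2%) were higher and 1 to 4 lower, against 25.4% to 29.6% and 20.1% to 23.8%. In dormant against enlarging storage clove 1 to 2 were higher and 1 to 3 lower, against 4.22% to 7.58% and 10.6% to 15.9%. In the difference between tissues 2 to 4 were higher and 1 to 6 lower, against 14.7% to 19.6% and 8.93% to 12.1%. Where a group then had 2 libraries, the spread was pooled over all groups. Over all genes tested, the deviations of same-numbered libraries from their group means correlated between -0.20 and 0.092, so the main fit did not pair them. In the members, however, replicate 1 was low in both enlarging and dormant storage clove. Whether libraries of the same number were handled together was not tested. A replicate block gave 76 members higher and 2 lower in germinating against dormant storage clove, against 30.6% and 28.8% of all genes. That block moved no count of calls by over 1.5 times. It changed 1 call of a named member, Asa7G03806.1 in dormant against enlarging basal clove (limma adjusted p = 0.055). Depth limits the storage values most, since 29 members had at most 3 reads in dormant storage clove.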
